A study of Homo sapiens with 6 samples.

Results

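The metallothioneins and zinc homeostasis genes described here are 9 of the 17687 genes in the expression table of KHM-5M cells, taken by symbol: the metallothioneins MT1E, MT1F, MT1G, MT1M, MT1X and MT2A, the zinc transporters SLC30A1 and SLC39A10, and the transcription factor MTF1. KHM-5M is an anaplastic thyroid cancer cell line. RNA was sequenced from 2 libraries of control cells given PBS, 2 of cells treated with sodium selenite (SS), and 2 of cells treated with SS and N-acetylcysteine (SS+NAC). N-acetylcysteine is a thiol that supplies cysteine and acts as an antioxidant, and the question behind the SS+NAC group was which effects of SS depend on reactive oxygen species. No group was given N-acetylcysteine alone. An effect of N-acetylcysteine itself and one that needs SS as well therefore cannot be told apart. The sample labels state no dose or exposure time as such. The titles of control carry SS0 and those of SS carry SS5, with no unit.

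The libraries held 17645545 and 22016655 expected counts in control, 23493415 and 23810056 in SS, and 23682740 and 22617180 in SS+NAC. For comparing libraries, levels are given as CPM, reads per library scaled to a common total. The total of each library was first adjusted by its TMM scaling factor. For comparing genes, levels are given as TPM, which also divides by transcript length. All 9 members passed the filter on low counts and were among the 14005 genes tested with edgeR's quasi-likelihood test. A gene was called at an adjusted p of at most 0.05. Each group is a bulk population, so a change in every cell and a change in some cells cannot be told apart.

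Markers of the cell line were checked in the same libraries. PAX8, a thyroid transcription factor, was at 134 and 126 TPM in control, whereas thyroglobulin (TG) was at 0.28 TPM in both control libraries and the iodide transporter SLC5A5 at 0.640 and 0.610. The keratins KRT8 (1134 and 1189 TPM) and KRT18 (933 and 927) were abundant in control. The other epithelial markers were far lower: EPCAM at 6.07 and 5.04 TPM, KRT19 at 2.19 and 1.51, and CDH1 at 0.290 and 0.160. Vimentin (VIM) was at 5880.1 and 6202 TPM. The summed endothelial markers were between 0.28 and 0.710 TPM in all 6 libraries, and the leukocyte gene CD3E had no count in 5 of them. COL1A2 and DCN, which mark fibroblasts, were below 1 TPM in each library, while COL1A1 was at 216 and 215 TPM in control. The summed fibroblast markers, nearly all of it COL1A1, came to 222 and 221 TPM in control, 183 and 171 in SS, and 278 and 257 in SS+NAC. The summed immune markers, mostly CD68, came to 84.6 and 89.2, 85.1 and 73.1, and 103 and 112 TPM. COL1A1 was called lower in SS than in SS+NAC (log2 fold change -0.34, edgeR adjusted p = 0.00922), but not in a fit with an offset for length, described below (-0.01, 0.957). In that fit CD68 was called lower in SS than in SS+NAC (-0.33, edgeR adjusted p = 0.0186). KRT8 (0.44, edgeR adjusted p = 0.0236), KRT18 (0.41, 0.0246), VIM (0.30, 0.0240) and PAX8 (0.29, 0.0170) were called higher there. The mesenchymal markers FN1 (-0.24, edgeR adjusted p = 0.118) and CDH2 (-0.18, 0.105) went the other way and were not called. Without the offset both were called lower in SS (-0.70 and -0.36). EPCAM (-0.34), KRT19 (0.60) and CDH1 (0.46) were not called with it. With the offset FN1 was called higher in SS+NAC than in control (0.48, edgeR adjusted p = 0.0295). The part of these markers in the results was not tested.

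Metallothioneins are small cysteine-rich proteins that hold zinc and copper through their thiol groups, and selenium compounds can oxidise such thiols and release the metal. When free zinc is high, MTF1 enters the nucleus, binds metal response elements and activates the metallothionein genes and SLC30A1, a zinc exporter of the plasma membrane. SLC39A10 carries zinc into the cytosol, and its transcription is repressed when zinc is high. A metallothionein mRNA that goes up together with SLC30A1 is therefore a common readout of zinc, although metallothioneins also answer to glucocorticoids and oxidants.

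The 6 metallothionein members lie within chr16:56608584-56684196 (GRCh38, RefSeq), all of them with 3 exons in their GENCODE release 29 reference transcript, and MT1G alone of the 6 is on the minus strand. MT2A (gene ID 4502) is at chr16:56608584-56609497 and MT1X (4501) at chr16:56682470-56684196, at the ends of this stretch, with MT1E, MT1M, MT1F and MT1G between them. SLC30A1 is at chr1:211571568-211579161 and MTF1 at chr1:37809574-37859592, both on the minus strand, and SLC39A10 is at chr2:195613029-195737700 on the plus strand. The copies are alike: of the windows of 50 bases, the read length, in the reference transcripts, 45.1% in MT1X, 20.2% in MT1G, 7.05% in MT1M, 5.34% in MT1E, 4.88% in MT2A and 3.59% in MT1F also occur in a transcript of another gene. For MT1X these are 181 of 401 windows, of which 59 are shared with genes that have a row in the table (MT1A, MT1F, MT1G, MT1M and MT2A) and the rest only with genes that have none, pseudogenes among them. RSEM divides such reads among the copies by estimate, so the counts carry an uncertainty that the replicate spread does not show. The annotation behind the table is not given in the sources used here, and some of its metallothionein genes span their neighbours. MT2A has a span of 83227 bases there that overlaps 8 other metallothioneins, MT1F one of 53295 bases and MT1E one of 34249 bases that overlap 5 each. Whether the counts of these genes hold reads of their neighbours was not tested.

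The RefSeq promoter table (GRCh38.p14) held 5 of the 9 members: MT1X, MT2A, MTF1, SLC30A1 and SLC39A10. Stretches of 250 bases before the gene start are shown. MT2A and MT1X were chosen because MT1X was called higher in SS+NAC than in control and MT2A was not. SLC30A1 was chosen because it is a known MTF1 target called lower in SS, where 6 of the 8 tested metallothioneins were called higher. Capitals mark matches to the core of the metal response element, searched as TGCACNC or TGCGCNC on both strands, where neighbouring matches may overlap. They are read from the coding strand, at chr16:56608334-56608583 (plus) for MT2A, chr16:56682220-56682469 (plus) for MT1X and chr1:211579162-211579411 (minus) for SLC30A1.
MT2A: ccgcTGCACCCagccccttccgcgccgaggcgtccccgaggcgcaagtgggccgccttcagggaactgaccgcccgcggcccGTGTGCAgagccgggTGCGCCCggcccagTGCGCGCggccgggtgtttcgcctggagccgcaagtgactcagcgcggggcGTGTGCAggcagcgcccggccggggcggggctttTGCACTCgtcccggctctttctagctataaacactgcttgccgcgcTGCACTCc
MT1X: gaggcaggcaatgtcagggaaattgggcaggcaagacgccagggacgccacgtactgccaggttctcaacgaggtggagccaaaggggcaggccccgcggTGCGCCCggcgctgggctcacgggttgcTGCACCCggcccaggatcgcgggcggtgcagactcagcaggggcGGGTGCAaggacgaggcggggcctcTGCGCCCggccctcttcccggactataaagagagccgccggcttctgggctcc
SLC30A1: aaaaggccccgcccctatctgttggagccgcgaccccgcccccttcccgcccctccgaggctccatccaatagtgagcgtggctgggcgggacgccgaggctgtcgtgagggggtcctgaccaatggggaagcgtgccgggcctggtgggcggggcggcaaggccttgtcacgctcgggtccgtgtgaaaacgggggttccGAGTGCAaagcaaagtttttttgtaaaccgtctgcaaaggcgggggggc
MT2A had 7 matches and MT1X 4, numbers reached by 0.0313% and 0.370% of the 35116 promoters of the table. SLC30A1 had 1 match, and 24.8% of all promoters had at least 1. MTF1 and the 2 entries of SLC39A10 had none of these letters in the window. The windows of SLC39A10, chr2:195656708-195656957 and chr2:195656976-195657225, lie inside the gene as placed above. The bases before its start given there were not searched. The core of the antioxidant response element, TGACNNNGC, occurred once each in the windows of MT2A, MT1X and SLC30A1 and in 10.9% of all promoters. These are matches of letters, not measured binding sites.

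MT2A made up most of the metallothionein mRNA. Over all metallothionein genes of the table the summed level was 7828 and 7495 TPM in control, 9212 and 9704 in SS, and 7153 and 6809 in SS+NAC. MT2A was between 74.6% and 78.7% of that sum in the 6 libraries and ranked between 6 and 12 among all genes by TPM. Among the 9 members in control, MT2A was at 6016 ± 205 TPM (SD, n = 2) and MT1E at 1304 ± 37.7, followed by MT1X at 112 ± 8.98, MT1G at 55.1 ± 0.651 and MT1F at 29.8 ± 1.65, and no pair of neighbours in this order overlapped. SLC39A10 (12.8 ± 1.73) and SLC30A1 (12.1 ± 0.332) overlapped with each other, and so did MTF1 (5.09 ± 0.106) and MT1M (3.26 ± 2.87). MT1A, which is not among the 9, was at 141 and 138 TPM in control, between MT1E and MT1X. The order of MT2A, MT1E, MT1X, MT1G and MT1F was the same in SS, where MT1F was at 41.0 ± 3.37 TPM and MT1G at 73.8 ± 3.18. In SS+NAC, MT1F (57.4 ± 4.33) and MT1G (56.6 ± 4.26) overlapped, and MT1X reached 194 ± 13.3.

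As counted, 5 of the 6 metallothionein members were called higher in SS than in control, and MT1M was not called. MT2A had 1311 and 1276 CPM in control and 1795 and 2081 in SS. MT1E, the next most abundant, had 320.1 and 314 CPM in control and 440.0 and 513 in SS. MT1X went from 19.8 and 22.7 CPM to 33.0 and 33.5. For each of these genes both SS libraries were above both control libraries. MT1G had 10.2 and 10.6 CPM in control against 16.6 and 17.2 in SS, and MT1F had 5.95 and 6.56 against 10.5 and 10.3. MT1M had few reads, 20 and 6 counts in the control libraries against 28 and 25 with SS.

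**Figure D1:**
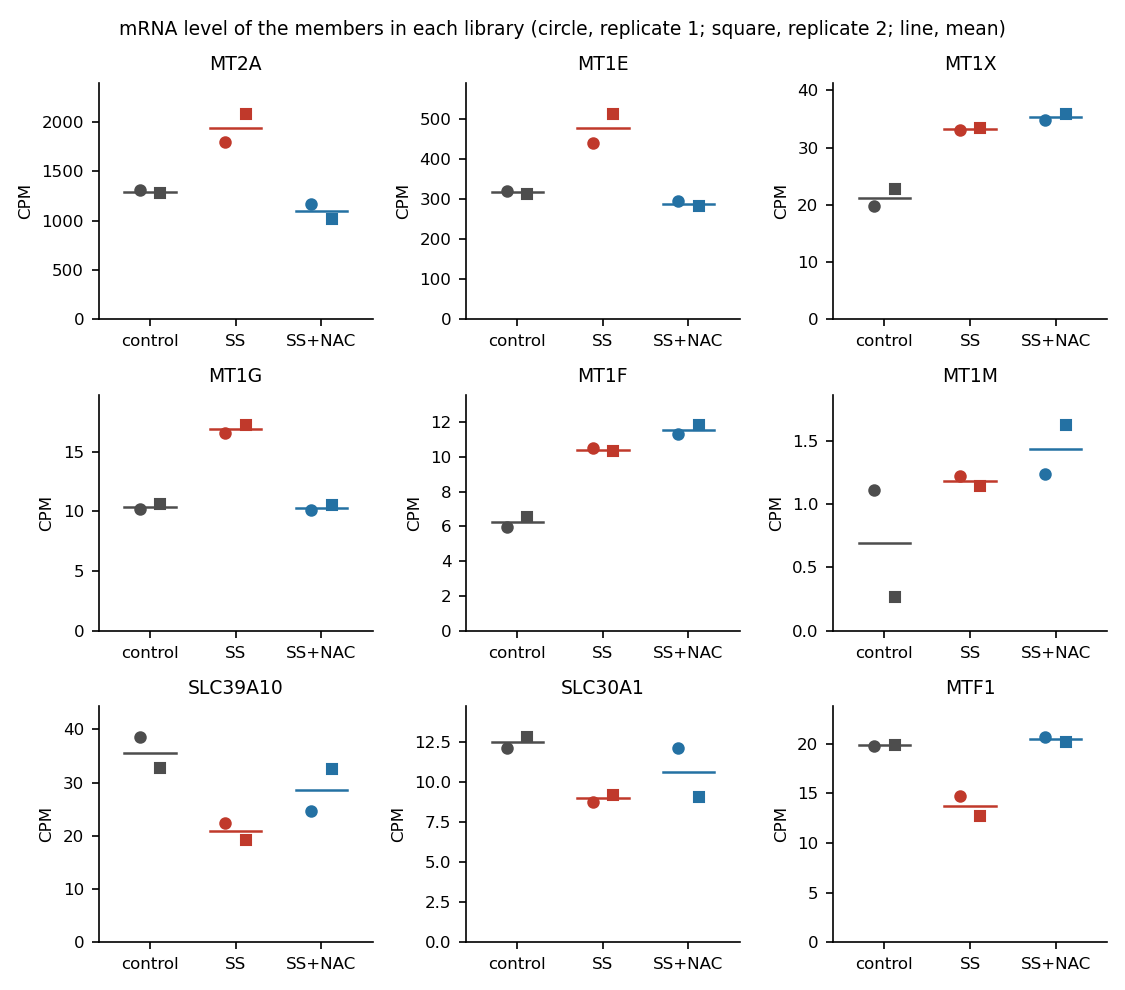
CPM of the 9 members in each library, one panel per gene with its own axis from 0; circles are replicate 1, squares replicate 2 and lines the group mean. MT2A, MT1E and MT1G were higher in the 2 SS libraries than in the other 4, whereas MT1X and MT1F were high in both SS and SS+NAC.

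Of the 8 metallothionein genes tested, 6 were called higher in SS than in control and 0 lower, with a median log2 fold change of 0.67. Over all tested genes 40% were called in this comparison, 18.6% higher and 21.4% lower, and the median log2 fold change was 0.00. MT2A rose 1.5-fold (log2 fold change 0.58, SE 0.100, edgeR adjusted p = 0.00144) and MT1E also 1.5-fold (0.59, SE 0.0871, adjusted p = 0.000699). MT1F rose by 0.73 (SE 0.124, edgeR adjusted p = 0.00136), MT1G by 0.70 (SE 0.104, adjusted p = 0.000721) and MT1X by 0.65 (SE 0.0892, adjusted p = 0.000519). MT1A, a further member of the family, rose by 0.55 (edgeR adjusted p = 0.00398). MT1M (0.84, SE 0.493) had an edgeR adjusted p of 0.203, which became 0.0184 without control replicate 1 (2.10), while the log2 fold change was 0.12 without control replicate 2. MT1H (1.07) had an edgeR adjusted p of 0.0551. MT1B, MT1HL1 and MT3 had at most 2 counts in any library and were not tested.

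This rise has to be set beside transcript length, because in SS short genes as a class were higher and long genes lower. Across 13997 tested genes the log2 fold change of SS against control had a Spearman rho of -0.68 with effective length, the number of positions in a transcript at which a read can start. Genes are not independent replicates, so no p is given. What set this relation was not tested. The tested metallothioneins have effective lengths between 367 and 479 bases, and the 57 other genes tested in that range had a median log2 fold change of 0.61, with quartiles of 0.53 and 0.75, and 80.7% of them were called higher. Against genes within 20% of its own length, MT2A differed from the median by -0.02, MT1E by 0.01, MT1X by 0.04 and MT1F by 0.13. MT1G, set against genes within 30%, differed by 0.10.

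**Figure D2:**
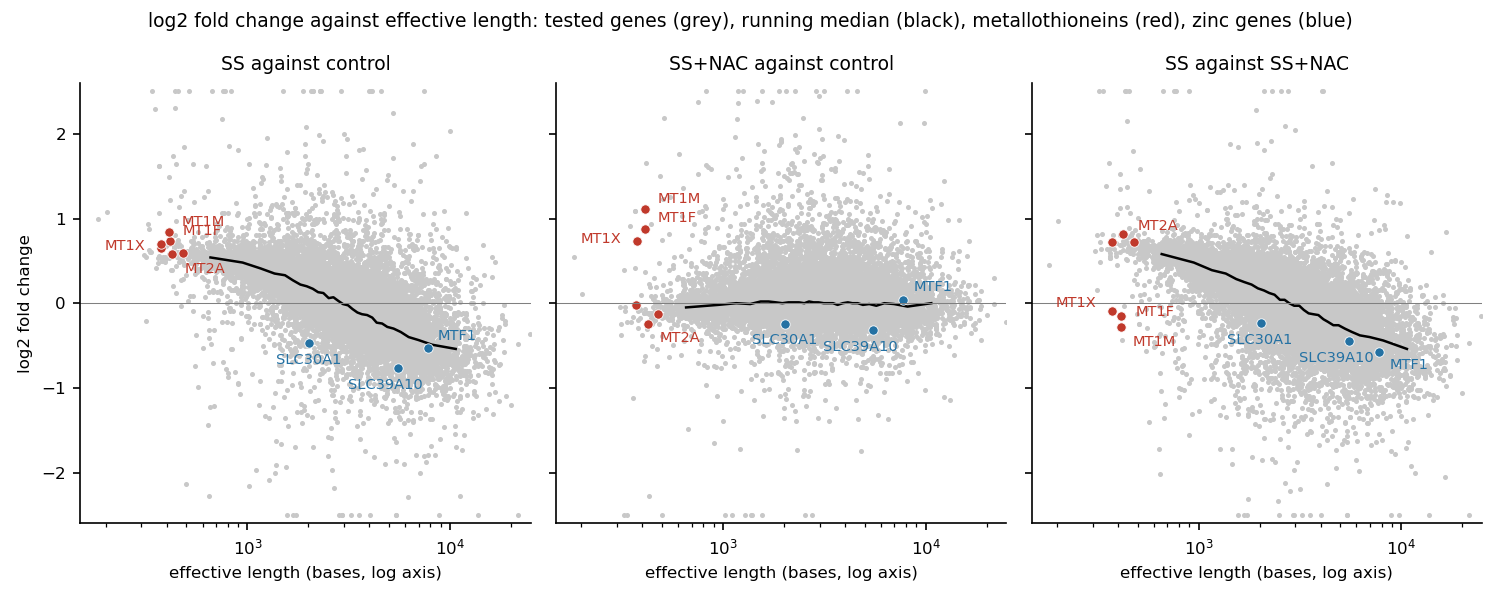
log2 fold change of each tested gene against its effective length on a log axis, for the 3 comparisons; the black line joins medians of genes of like length, and values beyond the axis are drawn at its edge. In SS against control MT2A, MT1E and MT1X lie close to the line, and MT1M is 0.24 above the median of genes of its length, while MT1F and MT1X lie above the line in SS+NAC against control (log2 fold changes of 0.88 and 0.73) and below it in SS against SS+NAC.

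When a length trend of each library was entered into the fit as an offset, 9.23% of the tested genes were still called between SS and control. With it 0 of the 8 metallothioneins were called by edgeR, and 0 had an unadjusted p of at most 0.05, while DESeq2 without the offset called 6. The log2 fold change became -0.03 for MT2A (edgeR adjusted p = 0.787), 0.01 for MT1X (0.962 by the same test) and 0.11 for MT1F (0.677). The reference transcripts of some of these genes are longer than their effective lengths, for MT2A 786 bases against 424. Those lengths were also put in the offset for the metallothionein, zinc, copper and marker genes, while all other genes kept their effective lengths. In that fit, an alternative chosen after seeing the data, none of the 6 members was called either (edgeR adjusted p between 0.395 and 0.924). The log2 fold change there was 0.08 for MT2A and 0.20 for MT1F. Against genes near the length of its reference transcript MT1F differed from the median by 0.19, and 91.0% of them were below it. Thus the metallothioneins called in SS rose by about as much as other short mRNAs, and no rise beyond that was detected with 2 libraries a group.

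In SS+NAC the metallothionein members lay on both sides of control as counted, and MT1F and MT1X were the ones called. MT2A was at 1173 and 1016 CPM and MT1E at 295 and 282, both libraries below those of control. MT1G, at 10.1 and 10.5 CPM, overlapped with control. MT1X instead had 34.9 and 35.9 CPM and MT1F 11.3 and 11.8, higher than in any of the other 4 libraries. MT1M had 30 and 39 counts, the highest of the 6 libraries.

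Between SS+NAC and control 2.01% of all tested genes were called, 1.36% higher and 0.657% lower, with a median log2 fold change of -0.00. Among the 8 metallothioneins 2 were called higher, MT1F and MT1X, and 0 lower, where edgeR gave 4 and DESeq2 3 an unadjusted p of at most 0.05 and DESeq2 called 2. MT1F rose 1.84-fold (log2 fold change 0.88, SE 0.122, edgeR adjusted p = 0.00462), from 107 and 145 counts in the control libraries to 273 and 284. MT1X rose 1.66-fold (0.73, SE 0.0885, edgeR adjusted p = 0.00188), with 356 and 501 against 842 and 865 counts. MT2A had a log2 fold change of -0.24 (SE 0.100, edgeR adjusted p = 0.274), which was -0.35 without SS+NAC replicate 1 (0.0582) and -0.14 without SS+NAC replicate 2 (0.617). MT1E was at -0.13 (edgeR adjusted p = 0.475) and MT1G at -0.02 (0.936). MT1M had the same sign as MT1F and MT1X (1.11, SE 0.475), with an edgeR adjusted p of 0.284. Its value rested on the control libraries, at 20 and 6 counts, and was 2.38 without control replicate 1 (edgeR adjusted p = 0.0761) and 0.37 without control replicate 2 (0.876).

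Over all lengths the Spearman rho between effective length and log2 fold change was -0.04 in this comparison. The 57 genes of metallothionein length had a median of -0.11, with quartiles of -0.20 and -0.00. MT1F was 0.99 and MT1X 0.85 above the median of its length reference on the log2 scale, and 91.5% and 90.2% of the reference genes were below them. The length offset left 2.01% of all genes called, and MT1F (0.95, edgeR adjusted p = 0.00821) and MT1X (0.82, adjusted p = 0.00478) were again the 2 metallothioneins called, while MT1G went from -0.02 to 0.06. With the lengths of the reference transcripts in the offset MT1F was at 0.92 (edgeR adjusted p = 0.00715) and MT1X at 0.81 (adjusted p = 0.00447). MT1F lost its call without control replicate 1 (edgeR adjusted p = 0.0583, with a range of 0.000950 to 0.306 over the alternatives tried), and MT1X kept it with any 1 library left out. In the fit with the length offset each library was left out as well, which was added after seeing the data. There MT1F lost its call without control replicate 1 (edgeR adjusted p = 0.0884) or 2 (0.0734) and MT1X without control replicate 1 (0.0524), while the log2 fold changes stayed between 0.84 and 1.06 and between 0.70 and 0.91.

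A ratio within a library does not depend on the scaling between libraries. The metallothioneins are of like effective length, but the reference transcript of MT2A (786 bases) is longer than those of MT1X (450) and MT1G (405), so length cannot be taken to cancel in these ratios. MT1X had 1.51 and 1.78 counts per 100 MT2A counts in control, 1.84 and 1.61 in SS, and 2.97 and 3.53 in SS+NAC. MT1F had 0.453 and 0.515 in control, 0.586 and 0.494 in SS, and 0.965 and 1.16 in SS+NAC. The SS libraries overlapped with the control libraries for both genes, and the SS+NAC libraries were above the other 4. MT1E had 24.4 and 24.6 counts per 100 MT2A counts in control, 24.5 and 24.6 in SS, and 25.2 and 27.8 in SS+NAC, so its ratio to MT2A overlapped between SS and control. Relative to MT2A, SS+NAC against control was a ratio of 1.98 for MT1X, 2.2 for MT1F, 1.17 for MT1G and 1.08 for MT1E. For each of them a two-sided exact permutation test gave p = 0.333 (n = 2 and 2), the smallest value that this design allows.

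**Figure D3:**
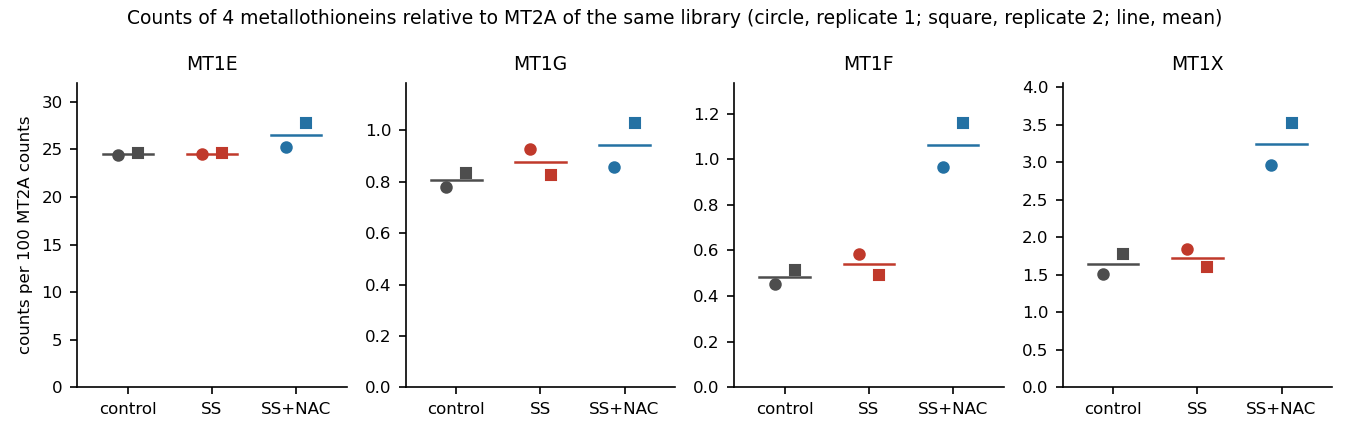
Counts of MT1E, MT1G, MT1F and MT1X per 100 counts of MT2A in the same library, each axis from 0; circles are replicate 1, squares replicate 2 and lines the group mean. MT1F and MT1X have nearly the same ratio in control and SS (means of 0.484 and 0.540 for MT1F) and a higher one in SS+NAC (1.06), while the ratio of MT1E stays between 24.4 and 27.8.

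The comparison of SS with SS+NAC asks what N-acetylcysteine altered in cells given SS. Calls took in 42.7% of all genes tested, with SS above SS+NAC in 19.6% and below it in 23.1%, and a median log2 fold change of -0.03 and a Spearman rho of -0.64 with effective length. Of the 8 metallothioneins 4 were called higher in SS and 0 lower by edgeR and by DESeq2, namely MT2A, MT1E, MT1G and MT1A. MT2A was 1.77-fold higher in SS (log2 fold change 0.82, SE 0.101, edgeR adjusted p = 0.000335), and MT1E and MT1G each 1.65-fold higher (0.72, adjusted p = 0.000325 and 0.000566). MT1F (-0.15, edgeR adjusted p = 0.309) and MT1X (-0.09, adjusted p = 0.430) were not called. The 57 genes of metallothionein length had a median of 0.70.

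Once length was entered as an offset, 14.4% of all genes were called between SS and SS+NAC, and the metallothioneins called changed from the former 4 to MT1F and MT1X. Both were lower in SS than in SS+NAC, MT1F by -0.84 (SE 0.132, edgeR adjusted p = 0.00401) and MT1X by -0.80 (SE 0.104, adjusted p = 0.00161). MT2A (0.14, edgeR adjusted p = 0.146), MT1E (0.07, 0.487) and MT1G (0.01, 0.979) were no longer called. Of the reference genes by effective length, 1.41% for MT1F and 1.96% for MT1X had a lower log2 fold change than they did. Against genes near the length of the reference transcript these shares were 8.33% for MT1F and 1.41% for MT1X. With the lengths of the reference transcripts MT1F (-0.72, edgeR adjusted p = 0.00580) and MT1X (-0.79, adjusted p = 0.00164) were again lower, and MT2A was called higher (0.30, adjusted p = 0.0167). Without SS replicate 2 the edgeR adjusted p of MT1F in the fit with effective lengths was 0.0525, and MT1X stayed called with any 1 library left out.

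SLC30A1, the exporter that MTF1 activates together with the metallothioneins, went down in SS. It had 12.1 and 12.8 CPM in control, 8.76 and 9.18 in SS, and 12.1 and 9.06 in SS+NAC. Both SS libraries were below both control libraries, and the SS+NAC libraries lay apart from each other, one at the level of control and the other at that of SS. SLC30A1 fell to 0.721 of control in SS (log2 fold change -0.47, SE 0.145, edgeR adjusted p = 0.0247). How this compares with genes of its length depended on the length taken, since its effective length in the table is 2021 bases and its reference transcript has 5474. The 2726 genes within 20% of 2021 bases had a median of 0.19, from which SLC30A1 differed by -0.66, and in the fit with the length offset it was -0.65 (SE 0.140, edgeR adjusted p = 0.0197), the only member called between SS and control there. The 2520 genes near the length of the reference transcript had a median of -0.30, from which it differed by -0.17, and 26.1% of them were lower. With that length in the offset, an alternative chosen after seeing the data, SLC30A1 was at -0.15 (edgeR adjusted p = 0.595) and was not called. Which transcript these cells use was not tested. Each of the 4 libraries of this comparison was needed for the call without the offset, with adjusted p from 0.00276 to 0.142 over the alternatives other than Bonferroni: without control replicate 1 or 2 the edgeR adjusted p was 0.0681 or 0.142, and without SS replicate 1 or 2 it was 0.105 or 0.0836. The log2 fold changes were between -0.51 and -0.40 in these 4 fits. Leaving out the same libraries in the fit with the offset, added after seeing the data, gave edgeR adjusted p between 0.100 and 0.121 and log2 fold changes between -0.68 and -0.60. Neither SS+NAC against control (-0.24, edgeR adjusted p = 0.436) nor SS against SS+NAC (-0.23, adjusted p = 0.221) was called. The latter was -0.43 and called without SS+NAC replicate 2 (edgeR adjusted p = 0.0223) and -0.01 without SS+NAC replicate 1 (0.948), and the former was -0.05 and -0.46 without the same libraries (0.922 and 0.0602).

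SLC39A10, the importer, was at 38.6 and 32.7 CPM in control, 22.4 and 19.3 in SS, and 24.6 and 32.5 in SS+NAC. It fell to 0.586 of control in SS (log2 fold change -0.77, SE 0.139, edgeR adjusted p = 0.00183). The 2467 genes of like length, near 5510 bases, had a median of -0.30, and 49.3% of them were called lower as well. Its value in the fit with the length offset was -0.44 (edgeR adjusted p = 0.0612). Against SS+NAC it was lower in SS by -0.45 (edgeR adjusted p = 0.0236), a call that was lost with the length offset (-0.13, adjusted p = 0.520) and without SS replicate 2 (-0.35, 0.172) or SS+NAC replicate 2 (-0.24, 0.140), while it was -0.64 without SS+NAC replicate 1. The genes of like length had a median of -0.30 there too. SS+NAC against control was -0.32 (edgeR adjusted p = 0.281), and it was -0.53 and called without SS+NAC replicate 2 (adjusted p = 0.0195) but -0.13 without SS+NAC replicate 1 (0.530) and -0.20 without control replicate 1 (0.723).

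MTF1 itself was at 19.8 and 19.9 CPM in control, 14.7 and 12.7 in SS, and 20.7 and 20.2 in SS+NAC. It fell in SS against control (-0.53, SE 0.103, edgeR adjusted p = 0.00253) and was lower in SS than in SS+NAC (-0.58, SE 0.101, adjusted p = 0.00148). MTF1 is long, with an effective length of 7744 bases, and the 1246 genes near that length had a median of -0.45 and 62.4% called lower in SS against control. After the offset for length its change was -0.07 (edgeR adjusted p = 0.695) and -0.13 (adjusted p = 0.366). Its activity rests on zinc binding and location in the cell, which mRNA does not measure.

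Zinc transporters beyond the members were followed as families. Among 7 tested exporters of the SLC30 family 4 were called lower in SS than in control by edgeR, beside 21.4% of all tested genes, with a family median log2 fold change of -0.36, and DESeq2 also called 4. Besides SLC30A1 these were SLC30A5 (-0.30, edgeR adjusted p = 0.0411) and SLC30A6 (-0.38, adjusted p = 0.0209), which bring zinc into the secretory pathway, and SLC30A9 (-0.36, adjusted p = 0.0372). Among 11 tested importers of the SLC39 family 4 were called lower and 2 higher, with a median of -0.08, beside 18.6% of all genes called higher. The importers lower in SS were SLC39A6 (-0.65, edgeR adjusted p = 0.00116), SLC39A8 (-0.36, 0.0125), SLC39A10 and SLC39A14 (-0.52, 0.000948). SLC39A4, the importer of dietary zinc, was higher (0.65, edgeR adjusted p = 0.00294), and so was SLC39A13 (0.26, 0.0146). The effective length of SLC39A4 is 663 bases and its change with the length offset was 0.12 (edgeR adjusted p = 0.449), against 0.53 (adjusted p = 0.0267) with the 2297 bases of its reference transcript.

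**Figure D4:**
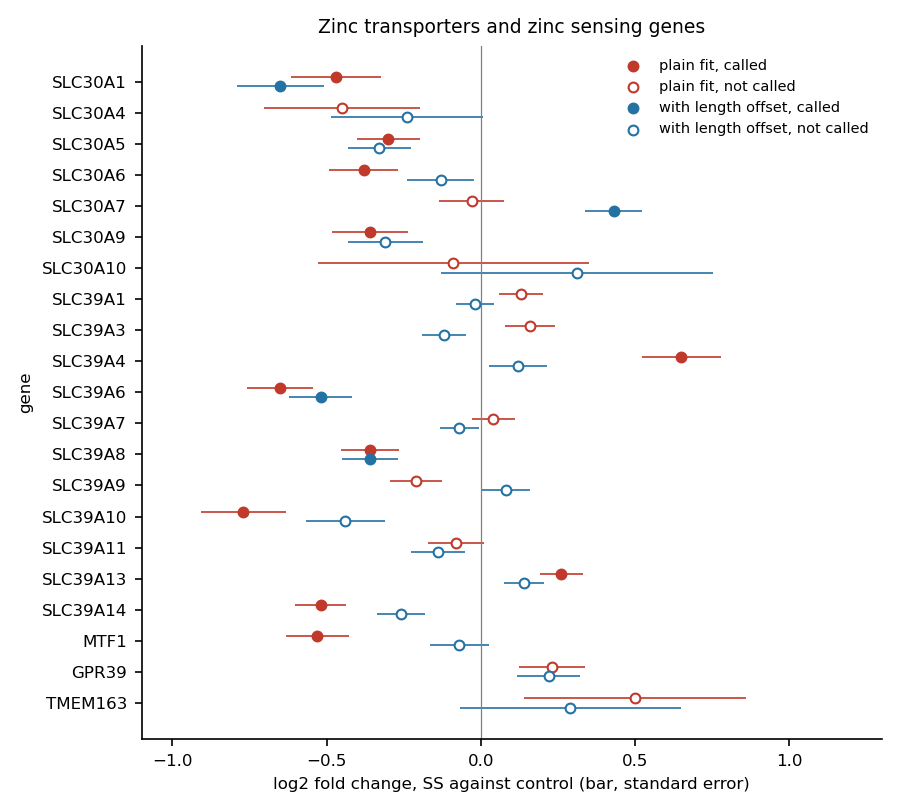
log2 fold change of SS against control with its standard error for the tested SLC30 and SLC39 transporters and zinc sensing genes; red points are the plain fit, blue points the fit with the length offset, and filled points were called. With the offset SLC30A1, SLC39A6 and SLC39A8 are called lower and SLC30A7 higher.

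The fit with the length offset called 4 of the 18 transporters between SS and control, beside 9.23% of all genes. SLC30A1, SLC39A6 (-0.52, edgeR adjusted p = 0.0128) and SLC39A8 (-0.36, adjusted p = 0.0366) were lower, and SLC30A7, a Golgi transporter with an effective length of 7582 bases, was higher (0.43, adjusted p = 0.0202) after a value of -0.03 without the offset. Leaving out a library in this fit ended the call of SLC39A6 in 3 cases, namely without control replicate 1 (edgeR adjusted p = 0.128) or SS replicate 1 (0.0695) or 2 (0.109). It ended that of SLC39A8 without any of the 4 compared libraries (edgeR adjusted p from 0.0983 to 0.273) or with the replicate block (0.0691), and that of SLC30A7 without control replicate 1 (0.112) or 2 (0.144) or SS replicate 1 (0.174). With the lengths of the reference transcripts SLC30A5 (-0.66, edgeR adjusted p = 0.00798), SLC39A6 (-0.55, 0.0109) and SLC39A14 (-0.78, 0.00107) were called lower and SLC39A4 higher, whereas SLC30A7, whose reference transcript has 1281 bases, was at -0.40 (0.0720) and SLC39A8 at -0.32 (0.0586). The plain fit called 10, beside 40% of all genes, and between 4 and 6 when a control or SS library was left out, where between 22.4% and 32.6% of all genes were called. SLC39A4, SLC39A6, SLC39A10 and SLC39A14 kept their calls with each of the 6 libraries left out in turn.

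Between SS+NAC and control, where 2.01% of all genes were called, 0 of the 18 transporters were called by edgeR or by DESeq2, and 2 had an unadjusted p of at most 0.05 in either. Their median log2 fold change was -0.01. With the length offset SLC30A7 was called higher (0.43, edgeR adjusted p = 0.0408), a call lost with the replicate block (0.0651), without control replicate 1 (0.183) or 2 (0.357) and with the length of its reference transcript (0.126). Between SS and SS+NAC 11 of the 18 transporters were called, beside 42.7% of all genes. SLC30A5, SLC30A6, SLC30A7, SLC30A9, SLC39A6, SLC39A9, SLC39A10 and SLC39A14 were lower in SS, and SLC39A3, SLC39A4 and SLC39A13 higher, while 2 were called with the offset, beside 14.4% of all genes, SLC39A6 (-0.42, edgeR adjusted p = 0.0235) and SLC30A5 (-0.37, adjusted p = 0.0357). The first was lost there without SS replicate 1 (edgeR adjusted p = 0.0738) or 2 (0.174) or SS+NAC replicate 2 (0.0726), and the second with the replicate block (0.0559) or without any library but SS+NAC replicate 1 (0.0569 to 0.230). With the lengths of the reference transcripts SLC39A6, SLC30A5, SLC30A7 and SLC39A14 were called lower and SLC39A4 higher. Leaving out SS replicate 2 reduced the 11 calls to 3, beside 23.3% of all genes, and leaving out SS+NAC replicate 2 to 5, beside 36.1%. Of the zinc sensing genes besides MTF1, the zinc receptor GPR39 was higher in SS than in SS+NAC (0.34, edgeR adjusted p = 0.0231), a call lost without SS replicate 1 (0.113) or 2 (0.0663) or SS+NAC replicate 2 (0.0679), and TMEM163 was not called.

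Copper shares the metallothioneins, so 15 genes of copper handling were followed beside zinc. Against control, 6 of them passed the test upwards with SS, beside 18.6% of all genes, namely the chaperones ATOX1, CCS, COX17 and SCO2, the trafficking factor COMMD1 and the superoxide dismutase SOD1. The 4 called lower, beside 21.4% of all genes, were the importer SLC31A1, the exporter ATP7A, the metalloreductase STEAP2 and the chaperone SCO1. ATOX1, which is as short as the metallothioneins, rose from 58.4 and 61.4 CPM to 78.6 and 95.0 (log2 fold change 0.53, edgeR adjusted p = 0.00189). SOD1 rose from 156 and 157 CPM to 225 and 238 (0.57, edgeR adjusted p = 0.000370). With the length offset 0 of the 15 were called and 1 had an unadjusted p of at most 0.05 by edgeR, while DESeq2 without the offset called 9. With the lengths of the reference transcripts SCO1 was called higher (0.31, edgeR adjusted p = 0.0243). In SS+NAC against control 0 were called by edgeR or DESeq2, where 3 and 2 had an unadjusted p of at most 0.05. Between SS and SS+NAC 9 of the 15 were called by edgeR, beside 42.7% of all genes, with ATOX1, CCS, COX17, SCO2, COMMD1 and SOD1 higher in SS and SLC31A1, ATP7A and STEAP2 lower. With the length offset 2 stayed called, SCO2 (0.40, edgeR adjusted p = 0.0258) and SLC31A1 (-0.24, adjusted p = 0.0468). SCO2 lost the call without SS replicate 2 (edgeR adjusted p = 0.224) and SLC31A1 with the replicate block (0.106) or without any library but SS+NAC replicate 1 (0.0803 to 0.219). SCO1, at -0.00 with its effective length of 2805 bases, was called higher (0.50, edgeR adjusted p = 0.00243) with the 9612 bases of its reference transcript.

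Among 12660 genes outside the family, those whose log2 CPM followed the mean of the 6 metallothionein members most closely over the 6 libraries were GSTZ1 (Pearson r 0.9957), FBXO4 (0.9929), LIMD2 (0.9926), HSPA2 (0.9890) and FAM216A (0.9888). GSTZ1, an enzyme of tyrosine breakdown, had 14.5 and 12.9 CPM in control, 20.3 and 22.1 in SS, and 17.4 and 17.6 in SS+NAC. The mean of the 6 members weighs MT1F, MT1M and MT1X as much as MT2A, and in all 5 genes the SS+NAC libraries lay between those of control and SS. All 5 genes were lower in control replicate 2 than in control replicate 1. MT1M fell most between these libraries (1.11 and 0.271 CPM), MT2A and MT1E were slightly lower, and MT1F, MT1G and MT1X were higher. How far MT1M set the ranking was not tested. They were picked as the highest of many over 6 points, and the r values are a description.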

How the data were processed

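RNA of KHM-5M cells was sequenced in single-end reads of 50 bases on a BGIseq500. After a SOAPnuke filter, the authors used HISAT2 (2.0.4) for mapping and RSEM (1.2.12) for gene levels, and the submitters' notes also name Bowtie2 (2.2.5). Expected counts in the deposited table are RSEM estimates by the authors, in which reads shared between genes are divided. The TPM and FPKM values in the deposited table were made by the authors from these counts and transcript length. Columns of the authors' group means, and of their comparisons (log2 fold changes, p-values and q-values), were not used.

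Expected counts were rounded, filtered with filterByExpr, scaled with TMM and fitted over all 6 libraries with edgeR 4.0.16 (R 4.3.3), with Benjamini-Hochberg adjustment over 14005 genes. The biological coefficient of variation was 6.74%. Effective length was derived from counts and FPKM, and 31 genes had none. The length offset was a lowess fit (span 0.3) for each library. The reference transcript of a gene was the one numbered lowest in GENCODE release 29, which need not be the transcript these cells use. Its length less the read length gave another effective length. This was done for the metallothionein, zinc, copper and marker genes only, so the length trend rested mostly on the derived effective lengths of other genes. No such transcript was found for SLC30A10 in the basic annotation used, and SLC30A10 kept its effective length. The length reference of a member was the tested genes outside the family within 20% of its effective length, or 30% where fewer than 50 genes were found. Replicates differed by more than sampling noise, with a chi-square per degree of freedom of 3.1 in control, 7.35 in SS and 12.2 in SS+NAC. The study names 2 biological replicates, but the labels do not say how they were separated, so p-values may cover technical spread only. Alternatives were DESeq2 1.42.0 (size factors, Wald test), other filters, fits of the compared groups alone, the replicate number as a block, an offset for length, Bonferroni adjustment and each library left out. The rule for named genes took the 9 members, list genes called in any comparison, and the 5 genes most like the members; the metallothioneins, markers and zinc sensing genes named without a call were added after their values were seen. Members and lists were chosen with earlier results of these data known. Windows and motifs were computed in Python 3.11.15 (pandas 2.3.3, scipy 1.17.1), and figures with matplotlib 3.10.9.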

Additional observations from a re-analysis of the deposited data

How the results depend on the processing

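Over 27 comparisons of a member between groups and up to 15 alternatives each, 343 of 400 values kept direction and side of the threshold, 42 lost their call, 7 gained one and 8 changed sign. The sign changed for MT2A in SS against control with the length offset, alone or with a replicate block (-0.03 each), for MT1E there (-0.00 each), and for MT1G in SS+NAC against control, near 0, with the offset, alone or with the block (0.06 each), and without control replicate 2 (0.01) or SS+NAC replicate 1 (0.00). With 1 library left out, MT1G there ranged from -0.05 to 0.01. With the lengths of the reference transcripts in the offset, chosen after seeing the data, the sign of the offset fit changed for MT1E (0.06) and MT2A (0.08) in SS against control and for MT1G (-0.01) and SLC30A1 (0.08) in SS against SS+NAC.

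The length offset reduced the genes called in SS against control from 5609 to 1292 and in SS against SS+NAC from 5985 to 2019. Metallothioneins called went from 6 to 0 and from 4 to 2, and zinc transporters from 10 to 4 and from 11 to 2, while 1 transporter was gained in SS+NAC against control. Bonferroni adjustment left 220, 40 and 191 genes in SS against control, SS+NAC against control and SS against SS+NAC, with 0 metallothioneins and 0 zinc transporters in each. With TPM in place of CPM, the log2 ratio of the summed metallothioneins was 0.30 in place of 0.59 for SS against control and 0.44 in place of 0.78 for SS against SS+NAC.

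With 1 library left out, where a lone library was assumed to vary like the other groups, the 3 comparisons in that order called 3143 to 6586, 96 to 1067 and 3268 to 6332 genes, 6 to 7, 1 to 2 and 4 metallothioneins, and 4 to 11, 0 to 1 and 3 to 12 transporters. The lowest count for the first was without control replicate 1, for the next without control replicate 2, with the highest without SS+NAC replicate 1, and for the last without SS replicate 2. The length reference medians shifted by at most 0.09 with 10% or 40% in place of the width used.

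Whether the replicate numbers pair the samples cannot be told from 2 libraries a group, where each pair of groups gives a single correlation. Deviations of libraries with the same number had a correlation of 0.113 between SS and control, -0.105 between SS+NAC and control and -0.175 between SS and SS+NAC. The replicate block called 4857, 211 and 5136 genes, 6, 2 and 4 metallothioneins, and 9, 0 and 9 transporters. With the length offset and the replicate block, 850 and 1349 genes were called in SS against control and SS against SS+NAC, with 0 and 2 metallothioneins and 3 and 1 transporters, and in SS+NAC against control 202 genes, 2 metallothioneins and 0 transporters. A block with the SS+NAC numbers exchanged, chosen after seeing the data, called 7151, 1475 and 7286 genes, 7, 3 and 4 metallothioneins and 11, 2 and 13 transporters, where in SS+NAC against control 2 metallothioneins were higher and 1, MT2A, lower, and 1 transporter was higher and 1, SLC39A10, lower. MT1M had 6 to 39 counts a library, and with 1 library left out its log2 fold change ranged from 0.12 to 2.10 in SS against control and from 0.37 to 2.38 in SS+NAC against control. The cause of these changes was not tested.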
